A study of Mus musculus with 16 samples.

Results

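The response to *Fos* knockdown was compared between kidney and liver, gene by gene, as the log2 change from shNT to shFOS in liver minus the same change in kidney. All 16 RNA-seq libraries of the series entered the comparison, 8 from kidney and 8 from liver, with 4 libraries in each of 4 groups: kidney shNT, kidney shFOS, liver shNT and liver shFOS. The mice were wild-type C57BL/6 animals labelled as 24 months old. Per the study's methods they were female and 24 months was their age at injection. Kidney and liver were collected some months later, so by those methods the tissue was older than its label. An AAV8 vector was given through the tail vein and carried either a hairpin against *Fos* (shFOS) or a non-targeting hairpin (shNT), so every animal received a vector and the series holds no uninjected group. AAV8 is a viral vector known to enter liver cells readily from the blood. The promoter that drives the hairpin is not given in the sources used here, and the labels do not say whether a kidney and a liver library came from the same animal. Nothing in the labels says how the libraries of a group were taken, so p-values measure the spread between these libraries.

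*Fos* encodes a subunit of AP-1, a dimer of Fos and Jun family proteins that binds DNA and switches on genes within minutes of growth, stress or inflammatory signals. The unfolded protein response, a gene list described in detail here, is the programme by which cells raise chaperones, disulfide isomerases and degradation factors of the endoplasmic reticulum (ER) when unfolded protein accumulates there. Its sensors are *Atf6*, *Ern1* (IRE1) and *Eif2ak3* (PERK), and liver and kidney both rely on it because hepatocytes secrete plasma proteins and tubule cells make large amounts of membrane and secreted protein.

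Reads on genes ranged from 14194543 to 15534665 in the kidney libraries and from 16652150 to 18300277 in the liver libraries. The 10 hepatocyte markers summed to at least 105227 CPM (reads of a gene scaled to library size, TMM-normalized over all 16 libraries) in each liver library, to between 246.7 and 454.6 CPM in kidney shNT and between 468.4 and 940.1 CPM in kidney shFOS, without overlap. Of the 9 hepatocyte markers tested in both organs, 5 had a positive and 4 a negative change in kidney, with a median of 0.05. Of the 9, *Apob* alone passed the adjusted threshold in kidney without GC correction, with log2 changes of 1.29 in kidney and -0.06 in liver. Their mean log2 deviation from the kidney shNT mean was 0.78, -0.91, -0.14 and 0.27 in the kidney shNT libraries. In the kidney shFOS libraries it was 0.85, -0.76, -0.40 and 0.21, so the groups overlapped at this level. The part of the difference in summed CPM in the kidney values was not tested. The 13 kidney tubule and podocyte markers summed to at least 9583 CPM in each kidney library and to at most 8.5 CPM in a liver library. Liver shNT replicate 4 and kidney shNT replicate 4 stood apart from the other libraries of their groups, where a chi-square over genes, divided by its degrees of freedom, came to between 334 and 431 and between 63.6 and 67.7 against them and to at most 60.2 and 13 among the other pairs of those groups. Kidney shFOS replicate 1 lay on the side of the shNT libraries along the first principal component of the kidney, with a loading of 0.15 where the other shFOS libraries lay between -0.47 and -0.38. Across 12669 genes the kidney change followed the GC content of the gene (Spearman's rho -0.38) and the liver change did not (-0.01), so that the difference between organs carried the trend too (0.31). By library, rho with GC content was 0.16 to 0.41 in kidney shNT and 0.17 in kidney shFOS replicate 1. In kidney shFOS replicates 2 to 4 it was -0.17, -0.42 and -0.39. Leaving out kidney shFOS replicate 1 thus keeps only the kidney shFOS libraries with a negative rho, in a fit without GC correction. The part of GC content in the calls of that fit was not tested. After correction for GC content, *Adam10*, *Afap1*, *C4b*, *Ciart*, *Ero1l*, *Ier2*, *Ndufs7*, *Psmc6* and *Sox17*, which are given here as having risen or fallen in kidney, did not pass the adjusted threshold there.

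*Fos* itself (ENSMUSG00000021250.13, chr12:85473890-85477273 of mm10, + strand) measured 4.73, 3.66, 2.99 and 3.83 CPM in the kidney shNT libraries and 1.85, 2.95, 2.72 and 1.61 CPM in the kidney shFOS libraries. In liver it measured 1.57, 3.34, 5.2 and 4.05 CPM with shNT and 2.31, 2.13, 3.87 and 1.97 CPM with shFOS. Every kidney shFOS library lay below every kidney shNT library, while the liver groups overlapped. The log2 change was -0.73 (SE 0.33) in kidney and -0.47 (SE 0.34) in liver, and neither passed the adjusted threshold in edgeR's quasi-likelihood test (adjusted p = 0.171 and 0.668). The difference between organs of 0.27 (SE 0.47, adjusted p = 0.826) was smaller than its error.

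After the filter on low counts 15421 genes were tested, and 12727 of them passed the filter in each organ. By edgeR's quasi-likelihood test, with p-values adjusted by the Benjamini-Hochberg method, 994 genes (6.45% of those tested) changed in kidney, 596 (3.86%) higher and 398 (2.58%) lower with shFOS. Upper-quartile scaling turned that balance, with 43.7% of the kidney calls higher against 60.0% with TMM. In the same edgeR fit 0 genes passed in liver, where 1594 (10.3%, made up of 5.62% higher and 4.72% lower) had an unadjusted p under 0.05, DESeq2 called 119 and limma voom 0. For the difference between organs edgeR called 0, with 2482 (16.1%) at an unadjusted p under 0.05 (7.84% more positive and 8.25% more negative in liver). The smallest adjusted p of the difference was 0.179, shared by 219 genes. Some other fits of the difference called genes: 344 by DESeq2, 1041 by limma voom with sample weights and 1246 by edgeR without kidney shFOS replicate 1. Of the genes tested in both organs, 287 (2.26%) were called by all 3, 201 more negative and 86 more positive in liver than in kidney. In edgeR, upper-quartile scaling, the other count filters, the GC corrections and the replicate blocks each called 0. Leaving out any other single library also gave 0, except for 1 call without liver shFOS replicate 2. The limma voom fit gave kidney shFOS replicate 1 a low weight too (0.38), as it did shNT replicate 4 of kidney (0.28) and liver (0.23). The kidney calls rested on single libraries as well: leaving out kidney shFOS replicate 2, 3 or 4 or kidney shNT replicate 2 or 4 left 0, and leaving out kidney shFOS replicate 1 gave 2959.

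Across the 12727 genes, 54.6% had a log2 change of the same sign in both organs, and Spearman's rho between the 2 sets of changes was 0.15 (across genes, which are not independent replicates). Of the 941 genes that changed in kidney and were tested in both organs, the 575 that rose there (4.52% of all genes tested in both organs) had a median log2 change of 0.55 in kidney and 0.05 in liver, and the 366 that fell (2.88%) had medians of -0.73 and -0.02. In the tissue difference 720 of these 941 (76.5%) had an unadjusted p under 0.05, against 18% of all genes tested in both organs. Both counts use the same kidney libraries.

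**Figure D1:**
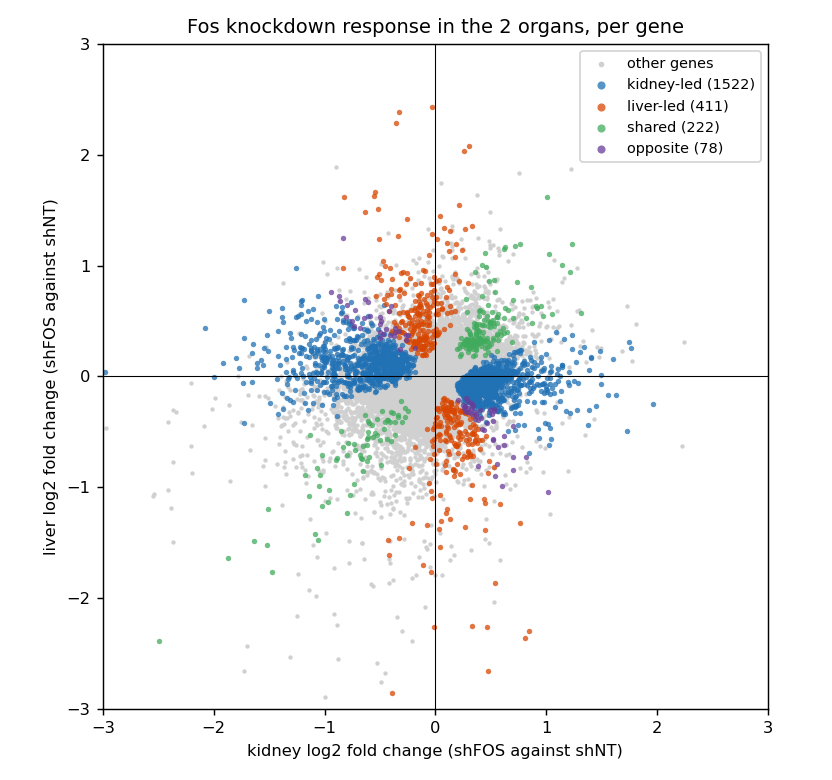
Each point is a gene tested in both organs, with the log2 fold change of shFOS against shNT in kidney on the x axis and in liver on the y axis. Colours mark the 1522 kidney-led, 411 liver-led, 222 shared and 78 opposite genes at an unadjusted p under 0.05, and 7 of 12727 genes lie outside the axes.

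Genes were sorted by their unadjusted p in each organ and for the difference. An opposite gene had a p under 0.05 in both organs with opposite signs, a shared gene had a p under 0.05 in both with the same sign, and a kidney-led or liver-led gene had a p under 0.05 in that organ and for the difference but not in the other organ. By this rule 78 genes (0.613%) were opposite, 222 (1.74%) shared, 1522 (12%) kidney-led and 411 (3.23%) liver-led. At the same threshold 15.1% of these genes were higher and 12.8% lower in kidney, and 5.89% higher and 5.01% lower in liver. Multiplied as if the organs were unrelated, these shares come to more than the 0.613% found opposite and a little less than the 1.74% shared. With adjusted p-values in place of unadjusted ones each class held 0 genes. All 78 opposite genes kept the sign of their difference, with a p under 0.05, after correction for GC content, and 51 of them met the whole rule again (31 of the 45 that were higher in kidney and 20 of the 33 that were lower). Of the 78, 54 were among the 287 genes called by DESeq2, by limma voom and without kidney shFOS replicate 1. All of these fits use the libraries that placed the genes in the class, so they are not independent support for it.

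In the unfolded protein response more genes had a positive than a negative change with shFOS in kidney, and the reverse held in liver. Of its 26 genes 25 were tested in both organs, with a positive change for 18 and a negative one for 7 in kidney, and for 5 and 20 in liver, and 2 of them met the rule for opposite genes. Their median log2 change with shFOS was 0.29 in kidney and -0.33 in liver, where the medians over all genes tested in both organs were 0.01 and -0.00. At an unadjusted p under 0.05, 8 members were higher in kidney and 0 lower (15.1% and 12.8% of all genes), 0 were higher in liver and 9 lower (5.89% and 5.01% of all genes), and the difference was negative for 11 and positive for 1 (9.59% and 8.39% of all genes), with 7 negative without liver shFOS replicate 1. The liver median was -0.21 without liver shNT replicate 4. The median difference was -0.64, and it stayed between -0.78 and -0.51 when each library was left out in turn, -0.68 after correction for GC content and -0.48 without shNT replicate 4 of both organs. By adjusted p, DESeq2 called 5 members with a negative difference (2.15% of all genes, and 3.06% in either direction), limma voom with sample weights 6 (3.35%) and the fit without kidney shFOS replicate 1 called 7 (4.82%). *Pdia6*, *Dnajc3*, *Hsp90b1* and *Pdia3* were called by all 3. With all libraries edgeR called 0 members, also with upper-quartile scaling or the GC content correction.

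**Figure D2:**
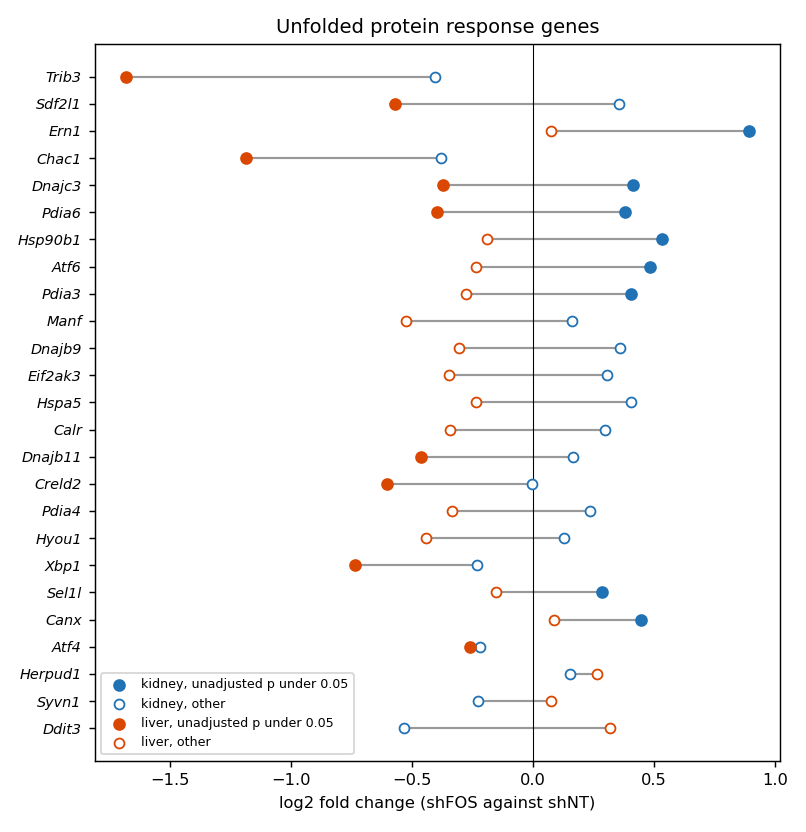
Each row is 1 of the 25 unfolded protein response genes tested in both organs, with its log2 fold change of shFOS against shNT on the x axis in kidney (blue) and in liver (orange), and filled points have an unadjusted p under 0.05. Most kidney points lie right of 0 and most liver points left of it, and *Ddit3*, with -0.53 and 0.32, shows the reverse order.

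Promoters of this pathway are known for the ER stress response element (ERSE), to which ATF6 and XBP1 bind together with NF-Y. Its letters, CCAAT and CCACG with any 9 bases between them, were searched on both strands in the 250 bases before the start of each gene in RefSeq (build GRCm38.p6), so that each match holds a CCAAT box by construction. They were present in 8 of the 23 members with a promoter in that table (34.8%) and in 19 of 10068 genes tested in both organs (0.189%), while the AP-1 letters TGACTCA on either strand were in 2 of the 23 (8.7%) and in 4.17% of the tested genes. The 8 members were *Calr*, *Canx*, *Creld2*, *Dnajc3*, *Hsp90b1*, *Hspa5*, *Pdia6* and *Syvn1*. Of these, 7 had a negative difference, 4 of them at an unadjusted p under 0.05, and the medians were 0.39 in kidney and -0.29 in liver. The whole list was similar, with a negative difference for 22 of 25 and medians of 0.29 and -0.33, so the 8 did not stand apart from it. Of all 12727 genes tested in both organs, 6637 had a negative difference. The upstream sequences of *Pdia6* and *Dnajc3*, the list's opposite genes, and of *Hsp90b1*, which holds the letters on each strand, are shown 5′ to 3′ on the strand of the gene with the matches in capitals.
Pdia6: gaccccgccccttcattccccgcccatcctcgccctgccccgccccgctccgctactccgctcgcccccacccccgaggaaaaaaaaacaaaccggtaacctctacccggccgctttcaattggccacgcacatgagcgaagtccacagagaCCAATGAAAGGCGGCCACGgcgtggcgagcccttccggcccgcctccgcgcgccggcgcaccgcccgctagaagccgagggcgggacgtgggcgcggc
Dnajc3: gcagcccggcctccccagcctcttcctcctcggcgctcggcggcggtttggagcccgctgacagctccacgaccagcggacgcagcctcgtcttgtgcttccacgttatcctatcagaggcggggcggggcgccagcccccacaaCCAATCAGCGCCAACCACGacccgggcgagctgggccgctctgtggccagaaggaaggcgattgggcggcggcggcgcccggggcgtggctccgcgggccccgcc
Hsp90b1: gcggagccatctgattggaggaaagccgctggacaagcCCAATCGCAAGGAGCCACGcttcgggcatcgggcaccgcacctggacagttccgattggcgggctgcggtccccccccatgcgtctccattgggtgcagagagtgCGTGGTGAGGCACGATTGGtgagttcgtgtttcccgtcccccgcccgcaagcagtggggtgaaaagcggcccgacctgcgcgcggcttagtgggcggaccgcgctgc
The *Pdia6* stretch is chr12:17266339-17266588 on the + strand with the match 98 to 80 bases before the start, and the *Dnajc3* stretch is chr14:118937682-118937931 on the + strand with the match 105 to 87 bases before it. The *Hsp90b1* stretch is chr10:86705445-86705694 on the - strand, with matches 212 to 194 and 107 to 89 bases before the start. A match is only a description of these letters, and binding was not measured.

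*Pdia6*, a disulfide isomerase of the ER lumen, measured 153, 129, 141 and 117 CPM in kidney shNT and 160, 183, 179 and 182 CPM in kidney shFOS. In liver it measured 359, 347, 381 and 593 CPM with shNT and 328, 314, 319 and 317 CPM with shFOS. The groups did not overlap in either organ and stood in opposite order, with liver shNT replicate 4 far above the other liver shNT libraries. Its log2 change was 0.38 (SE 0.15) in kidney and -0.40 (SE 0.15) in liver, a difference of -0.78 (SE 0.22; edgeR adjusted p = 0.184, DESeq2 adjusted p = 0.0243) that ranged from -0.88 to -0.57 with a library left out. *Pdia6* overlaps *Atp6v1c2* on the other strand, and reads of the pair cannot be told apart without strand.

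*Dnajc3*, which like *Hsp90b1* was chosen after its values were seen, encodes an ER co-chaperone that also restrains PERK. It measured 161, 122, 148 and 144 CPM in kidney shNT, 164, 209, 179 and 213 CPM in kidney shFOS, 447, 289, 391 and 523 CPM in liver shNT, and 294, 360, 279 and 342 CPM in liver shFOS. The kidney groups did not overlap and the liver groups did. The log2 changes of 0.41 (SE 0.17) and -0.37 (SE 0.17) differed by -0.78 (SE 0.24; edgeR adjusted p = 0.186, DESeq2 adjusted p = 0.0392). For *Hsp90b1*, which encodes the ER chaperone GRP94, kidney values ran from 321.8 to 485.8 CPM with shNT and from 475.8 to 666.1 CPM with shFOS, and liver values from 1235 to 1623 and from 1140 to 1327 CPM, with overlap in both organs. Its difference was -0.72 (SE 0.24; edgeR adjusted p = 0.196, DESeq2 adjusted p = 0.0309).

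Among the sensors, which like the members named in the rest of this account of the pathway other than *Atf6* and *Sdf2l1* were chosen after their values were seen, *Ern1* rose in kidney from between 6.24 and 7.85 CPM with shNT to between 10.4 and 14.5 CPM with shFOS (log2 change 0.89, SE 0.18, edgeR adjusted p = 0.0233), and the overlapping liver groups gave 0.07 (SE 0.17). *Atf6* was higher by 0.48 (SE 0.15) in kidney and lower by 0.24 in liver (log2 change -0.24, SE 0.15), a difference of -0.72 (SE 0.22; edgeR adjusted p = 0.186, DESeq2 adjusted p = 0.0544). *Eif2ak3* had log2 changes of 0.31 and -0.35, and *Sdf2l1*, an ER luminal protein induced by ER stress, of 0.36 and -0.57. Not every member took opposite signs. *Xbp1*, the transcription factor spliced by IRE1, had log2 changes of -0.23 in kidney and -0.74 in liver, where the groups did not overlap (354.9 to 762.3 CPM with shNT, 278.4 to 322.2 CPM with shFOS), *Atf4* of -0.22 and -0.26, *Trib3* of -0.41 and -1.68, and *Chac1* of -0.38 and -1.18, the last pair at mean levels of 1.53 to 6.81 CPM in the shNT groups. *Ddit3*, which encodes the pro-apoptotic factor CHOP, went the other way, with -0.53 (SE 0.26) in kidney and 0.32 (SE 0.27) in liver.

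As the mean log2 deviation of the 25 genes from the organ's shNT mean, the kidney shNT libraries 1 to 4 stood at 0.21, -0.17, 0.04 and -0.07 and the kidney shFOS libraries at 0.07, 0.39, 0.06 and 0.20. In liver the shNT libraries stood at 0.10, -0.36, -0.04 and 0.29 and the shFOS libraries at -0.58, -0.14, -0.15 and -0.35. The groups overlapped in each organ at this level, with kidney shNT replicate 1 and liver shNT replicate 2 inside the range of the shFOS libraries of their organ. In these bulk samples fewer cells of a type and less RNA per cell cannot be told apart.

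Further genes higher in kidney and lower in liver were *Uggt1* and *Mgat2*, and, chosen after their values were seen, *Ero1l*, *Sec24d* and *Galnt3*. *Uggt1*, the ER enzyme that recognizes misfolded glycoproteins, measured 55.2, 47.5, 54.7 and 50.7 CPM in kidney shNT, 56.1, 69.4, 67.5 and 68.6 CPM in kidney shFOS, 126, 97.3, 116 and 146 CPM in liver shNT, and 86.3, 106, 88.7 and 104 CPM in liver shFOS. Every kidney shFOS library was above every kidney shNT library, and the liver groups overlapped. The difference of -0.67 (SE 0.17) had an adjusted p of 0.179 in edgeR and 0.0199 in DESeq2. *Mgat2*, a Golgi enzyme of N-glycan synthesis, differed by -1.20 (SE 0.26; log2 changes 0.56 and -0.64), *Ero1l*, the oxidase that recharges disulfide isomerases, by -0.79 (SE 0.19; 0.49 and -0.30, the kidney rise with an edgeR adjusted p of 0.0428), *Sec24d*, a cargo adaptor of vesicles leaving the ER, by -0.93 (SE 0.25; 0.52 and -0.40), and *Galnt3*, which starts O-glycan chains in the Golgi, by -1.44 (SE 0.37; 0.54 and -0.90). *Galnt3* measured 0.856 to 3.29 CPM in the liver libraries, so its liver value rests on few reads. *Mgat2* overlaps the antisense gene *Gm49383*.

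The genes with the smallest p of the difference in the negative direction were *Ankib1*, *Adam10*, *Sipa1l2* and *Rap1gap2*. *Adam10* encodes the metalloprotease that sheds Notch receptors and many other surface proteins. It measured 63.8, 60.4, 65.1 and 61.5 CPM in kidney shNT, 72, 86.8, 73.7 and 88.3 CPM in kidney shFOS, 63.9, 50.3, 61 and 55.2 CPM in liver shNT, and 40.8, 47.4, 42.1 and 45.9 CPM in liver shFOS, so neither organ's groups overlapped. It rose in kidney (log2 change 0.36, SE 0.10, edgeR adjusted p = 0.0409; 0.23 after correction for GC content), the liver change was -0.39 (SE 0.10, adjusted p = 0.208), and the difference of -0.74 (SE 0.14) had an adjusted p of 0.179 in edgeR, 0.000667 in DESeq2 and 0.00733 in limma voom. *Ankib1*, an E3 ubiquitin ligase, rose in kidney from between 58.3 and 73 CPM to between 85.4 and 125 CPM (log2 change 0.70, SE 0.14, adjusted p = 0.0225) and stood in liver at 29.4 to 41.7 CPM with shNT and 21.2 to 28.7 CPM with shFOS (log2 change -0.45, SE 0.14). Its difference of -1.15 (SE 0.20) stayed between -1.28 and -1.05 when each library was left out. *Sipa1l2*, a regulator of Rap GTPases and also an opposite gene, had log2 changes of 0.38 (SE 0.15) in kidney, with overlapping groups, and -0.81 (SE 0.16) in liver, without overlap. *Lrp5*, a Wnt co-receptor, and *Egf*, made by the distal tubule and at 0.632 to 2.32 CPM in liver, were 2 further opposite genes of this direction, with differences of -0.83 (SE 0.17) and -1.54 (SE 0.40), chosen after their values were seen.

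**Figure D3:**
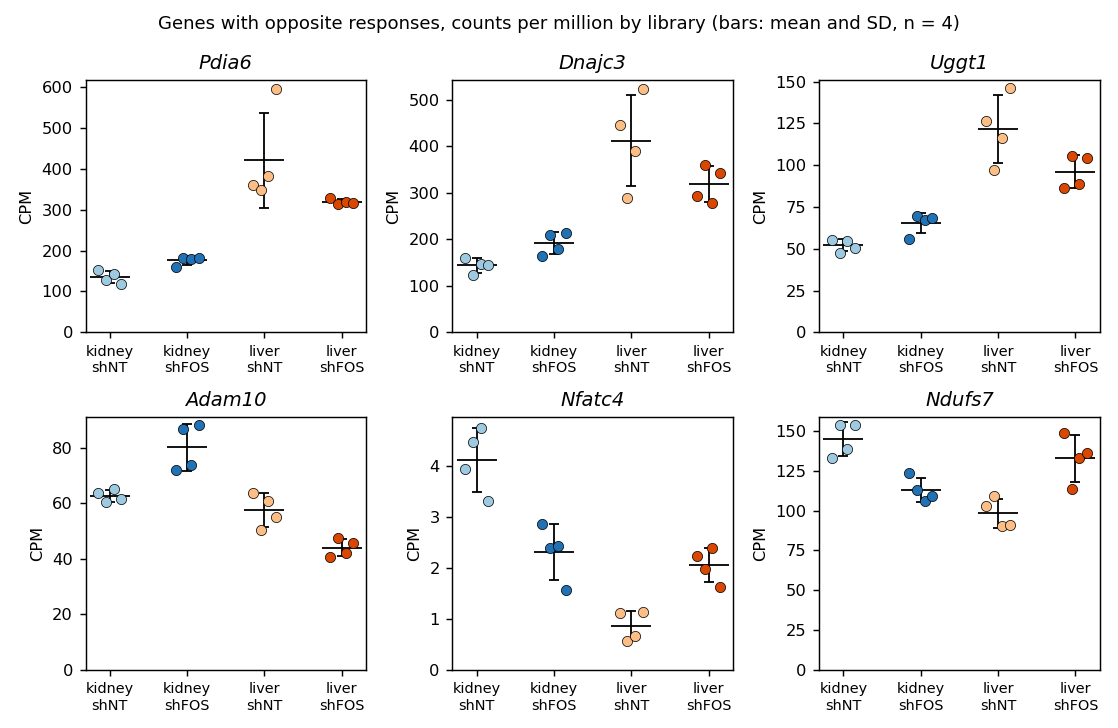
CPM (y axis, from 0) of 6 opposite genes in the 4 libraries of each group, with bars for the mean and SD. *Pdia6*, *Dnajc3*, *Uggt1* and *Adam10* were higher with shFOS in kidney and lower in liver, and *Nfatc4* and *Ndufs7* the reverse, with groups that overlap in liver for *Dnajc3* and *Uggt1*.

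In the other direction, lower in kidney and higher in liver, stood *Nfatc4*, *Ndufs7*, *Tnxb* and *N4bp2l1*. *Nfatc4*, a transcription factor switched on by calcineurin, measured 3.94, 4.46, 4.74 and 3.32 CPM in kidney shNT, 2.86, 2.38, 2.42 and 1.55 CPM in kidney shFOS, 1.11, 0.57, 0.659 and 1.12 CPM in liver shNT, and 2.23, 1.98, 2.39 and 1.63 CPM in liver shFOS. Neither pair of groups overlapped. The log2 changes of -0.83 (SE 0.25) and 1.25 (SE 0.28) differed by 2.08 (SE 0.38; edgeR adjusted p = 0.179, limma voom adjusted p = 0.00733), and by 1.80 after correction for GC content. *Ndufs7*, a core subunit of respiratory complex I, fell in kidney from 133, 154, 139 and 154 CPM to 124, 113, 106 and 109 CPM (log2 change -0.36, SE 0.10, edgeR adjusted p = 0.0494) and was higher in liver, at 103, 109, 90.3 and 90.7 CPM with shNT and 149, 114, 133 and 136 CPM with shFOS (log2 change 0.43, SE 0.10, adjusted p = 0.195). Correction for GC content left a kidney change of -0.08 and a difference of 0.48 where the uncorrected difference was 0.79 (SE 0.15), so the kidney value depended on that correction.

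*Tnxb*, an extracellular matrix glycoprotein, differed by 0.97 (SE 0.21; log2 changes -0.50 and 0.47, no overlap in either organ) and by 0.66 after correction for GC content. *N4bp2l1* differed by 1.13 (SE 0.28; -0.59 and 0.54), with overlapping groups in both organs. Chosen after their values were seen, *Sox17*, a transcription factor of endothelial cells, differed by 1.44 (SE 0.32) and fell in kidney from between 14.5 and 19.2 CPM to between 6.83 and 13.7 CPM (log2 change -0.79, SE 0.22, edgeR adjusted p = 0.0415). *Scnn1a*, a subunit of the epithelial sodium channel, differed by 1.25 (SE 0.32) and *Col16a1*, a collagen, by 1.28 (SE 0.36). *Spry2*, an inhibitor of growth factor receptor signalling, and *Afap1*, which binds actin filaments, completed the 4 genes with the smallest p in this direction, with differences of 1.09 (SE 0.22) and 0.86 (SE 0.18). The *Spry2* groups overlapped in kidney and not in liver, and the *Afap1* groups in liver and not in kidney, where *Afap1* fell (log2 change -0.48, SE 0.12, edgeR adjusted p = 0.034).

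Genes of the mitochondrial respiratory chain stood higher with shFOS in liver and less so in kidney. Of 72 genes 71 were tested in both organs, with a median log2 change of 0.30 in liver and 0.08 in kidney and a median difference of 0.20. In liver 52 of the 71 were higher at an unadjusted p under 0.05 and 0 lower (5.89% and 5.01% of all genes), and in kidney 12 were higher and 2 lower (15.1% and 12.8% of all genes). The difference was positive for 18 and negative for 0 (8.39% and 9.59% of all genes). The 18 became 8 to 11 when 1 of kidney shFOS replicates 1 to 4, kidney shNT replicates 1 to 3, liver shFOS replicate 3 or 4 or liver shNT replicate 3 was left out, and the median difference was 0.13 without kidney shFOS replicate 1 or liver shNT replicate 4. By complex, all 32 tested genes of complex I, 9 of complex III, 11 of complex IV and 14 of ATP synthase had a positive liver change, with medians of 0.27, 0.30, 0.32 and 0.33, against kidney medians of -0.01, 0.08, 0.00 and 0.07. The 4 genes of complex II, succinate dehydrogenase, had similar medians in the 2 organs, 0.37 in liver and 0.29 in kidney.

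Liver values of this list stood at 0.32, 0.21, 0.33 and 0.32 in the shFOS libraries and at 0.19, 0.12, -0.12 and -0.19 in the shNT libraries, as the mean log2 deviation from the liver shNT mean, and the groups did not overlap. *Ndufa12*, an accessory subunit of complex I, measured 61.9, 61.8, 49.7 and 52.2 CPM in liver shNT and 69.1, 68.7, 72.5 and 75.8 CPM in liver shFOS, and 106 to 126 CPM in all kidney libraries. Its difference of 0.45 (SE 0.12) had an adjusted p of 0.179 in edgeR and 0.0304 in DESeq2, and *Atp5e*, a subunit of ATP synthase, differed by 0.48 (SE 0.14). The organ difference of the list changed with corrections for gene composition. With a GC content correction the median difference was 0.14, with 7 positive and 1 negative at an unadjusted p under 0.05. With GC content and transcript length, a correction added after seeing the data, it was 0.03, with medians of 0.18 in kidney and 0.24 in liver. Upper-quartile scaling gave 22 positive and 0 negative differences at that threshold, and DESeq2 19 and 0. The list's median transcript length was 1141 bases, against 3385 over all genes tested in both organs. The part of gene composition in the difference was not tested.

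Kidney-led genes numbered 823 higher (6.47%) and 699 lower (5.49%) with shFOS in kidney, and 421 and 284 of them passed the adjusted threshold in kidney. The higher genes had median log2 changes of 0.47 in kidney and -0.06 in liver, and the lower genes of -0.60 and 0.11. Their composition differed, with a median GC content of 44.5% and a median transcript length of 4707 bases for the higher and 54.4% and 2966 bases for the lower, where all genes had 49.7% and 3385 bases. After correction for GC content 552 of the 823 and 416 of the 699 met the rule again.

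*Ston1*, an endocytic adaptor, rose in kidney from 5.38, 5.54, 7.05 and 4.81 CPM to 11, 19, 27.2 and 19.2 CPM (log2 change 1.74, SE 0.25, edgeR adjusted p = 0.0223) and in liver had a log2 change of 0.31 (SE 0.26) with overlapping groups. *Adam9*, a relative of *Adam10* on the cell surface, rose in kidney from 65, 54.8, 60.5 and 59.1 CPM to 78.7, 97.9, 105 and 107 CPM (log2 change 0.70, SE 0.10), and *Mtrex*, the helicase of the nuclear exosome, by 0.82 (SE 0.12). Liver changes of 0.05 and -0.00 were within their errors. *Sirt7*, a nucleolar deacylase, fell in kidney from 45.7, 46.9, 42.1 and 46.1 CPM to 35.7, 23.5, 23.6 and 22.7 CPM, where kidney shFOS replicate 1 stood nearer the shNT libraries (log2 change -0.78, SE 0.14), and in liver the change was 0.08 (SE 0.14). *Zfp707*, a zinc finger protein, and *Tepsin*, an adaptor accessory protein of the trans-Golgi network, fell in kidney by 1.12 (log2 change -1.12, SE 0.19) and by 0.73 (-0.73, SE 0.13), and their liver changes were -0.12 and 0.02. Each of these 6 genes had an adjusted p of 0.0223 in kidney and of 0.179 for the difference.

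Among the lists, proteasome subunits had a positive median in kidney. All 31 were tested, with medians of 0.11 in kidney and -0.05 in liver. At an unadjusted p under 0.05, 9 were higher in kidney (15.1% of all genes), 0 differed in liver, and the difference was negative for 6 (9.59% of all genes) and positive for 0. The negative differences numbered 2 with upper-quartile scaling, 10 without kidney shFOS replicate 1, and 2 or 3 without liver shFOS replicate 1, 3 or 4 or liver shNT replicate 1 or 2. *Psmc6*, an ATPase of the proteasome's base, rose in kidney (log2 change 0.50, SE 0.13, edgeR adjusted p = 0.0377) and had a liver change of -0.00 (SE 0.13). Genes of RNA interference, the machinery that a hairpin vector uses, moved in kidney in both directions. *Ago2*, the slicing Argonaute protein, rose from between 10 and 12.3 CPM to 12.1, 22.5, 29.8 and 23.5 CPM (log2 change 1.01, SE 0.23, adjusted p = 0.0296), with kidney shFOS replicate 1 at the shNT level, and *Tnrc6a*, its partner in silencing, fell (log2 change -0.73, SE 0.18, adjusted p = 0.0333). The liver changes of *Ago2* and *Tnrc6a* were -0.02 and -0.03. *Xpo5*, the exporter of hairpin precursors, had log2 changes of 0.36 in kidney and -0.23 in liver. Of the list's 14 genes, 3 had a positive and 3 a negative difference at an unadjusted p under 0.05 (8.39% and 9.59% of all genes). The positive count was 1 without kidney shFOS replicate 2, 3 or 4, and the negative count 5 without kidney shFOS replicate 1 or kidney shNT replicate 1.

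Liver-led genes numbered 223 higher (1.75%) and 188 lower (1.48%), of which 0 passed the adjusted threshold of edgeR in liver, where all 411 had an unadjusted p under 0.05 by the rule. *Rap1gap2*, which inactivates the small GTPase Rap1, measured 7.39, 5.21, 4.24 and 4.05 CPM in liver shNT and 1.52, 3.08, 2.14 and 2.05 CPM in liver shFOS, and 48.6 to 56.8 CPM in all kidney libraries. The liver groups did not overlap (log2 change -1.23, SE 0.20, adjusted p = 0.112), and the difference of -1.33 (SE 0.26) had an adjusted p of 0.179 in edgeR and 0.000481 in DESeq2. *Slc25a51*, the carrier that brings NAD into mitochondria, measured 74.5, 90.1, 98.1 and 55.3 CPM in liver shNT and 125, 124, 159 and 131 CPM in liver shFOS (log2 change 0.76, SE 0.14), with a kidney change of -0.04 (SE 0.14). *Pdzrn3*, a ubiquitin ligase, had a liver change of -1.38 (SE 0.24) and a kidney change of 0.03, *Zfp608* of -0.84 and 0.16, and *Pop1*, a subunit of RNase P, of 0.58 and 0.14.

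Collagens and matrix genes stood higher in liver, where 10 of the 28 had an unadjusted p under 0.05 and a positive change (5.89% of all genes) and 0 a negative one, against 1 (15.1% of all genes) and 0 in kidney. Their medians were 0.47 in liver and 0.16 in kidney, with a median difference of 0.24 that was 0.11 after correction for GC content, 0.14 without kidney shFOS replicate 4, 0.15 without kidney shNT replicate 2, and 0.36 to 0.40 without kidney shNT replicate 4, liver shFOS replicate 4 or liver shNT replicate 3. The kidney median was 0.33 after that correction, and 0.24, 0.28 and 0.07 without kidney shNT replicate 2, 3 and 4. *Lamb1*, the laminin beta-1 chain of basement membranes, measured 10.3, 12.6, 15.6 and 12.3 CPM in liver shNT and 21.1, 18.2, 22.2 and 17.6 CPM in liver shFOS (log2 change 0.63, SE 0.11, adjusted p = 0.112), and in kidney 0.13 (SE 0.11). *Acta2*, the smooth muscle actin of activated stellate cells, chosen after its values were seen, had a liver change of 1.33 (SE 0.31) without overlap and a kidney change of 0.27 (SE 0.28). The 9 fibroblast and stellate markers summed to between 308.8 and 508.7 CPM in liver shNT, between 492.4 and 643.2 CPM in liver shFOS, and between 326 and 519.1 CPM in kidney. Their part in the matrix values was not tested.

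**Figure D4:**
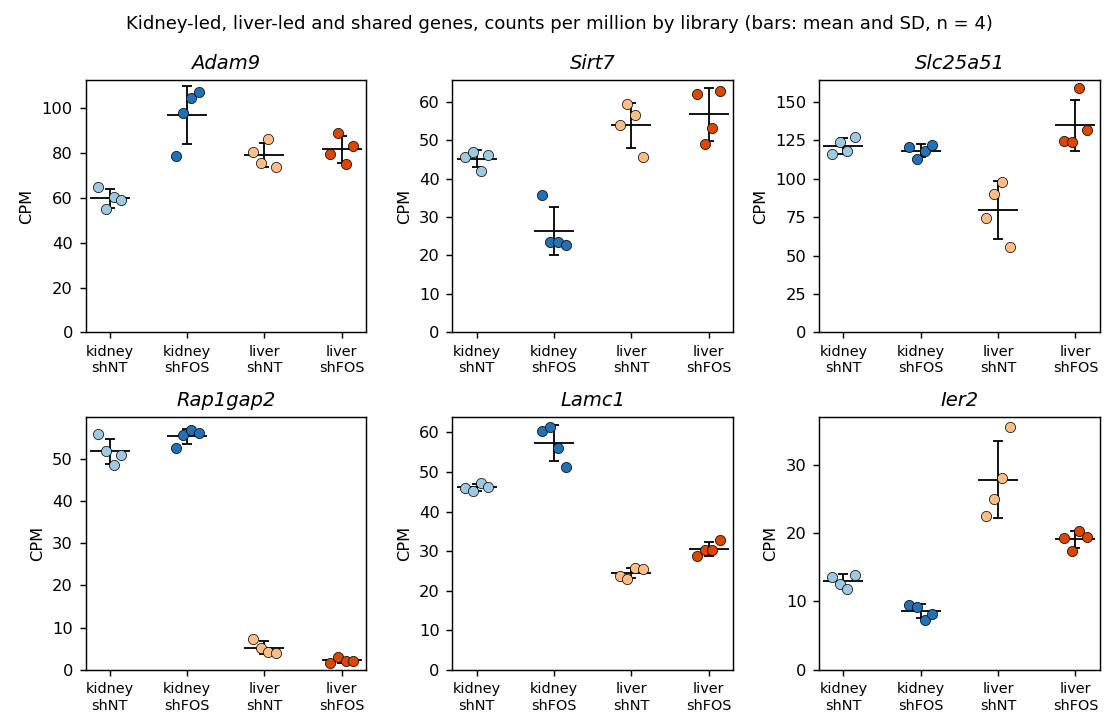
CPM (y axis, from 0) of 2 kidney-led genes (*Adam9*, *Sirt7*), 2 liver-led genes (*Slc25a51*, *Rap1gap2*) and 2 shared genes (*Lamc1*, *Ier2*) in the 4 libraries of each group, with bars for the mean and SD. The shNT and shFOS groups do not overlap in kidney for the kidney-led pair, in liver for the liver-led pair and in either organ for the shared pair.

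Shared genes were more often higher than lower with shFOS, 153 (1.2%) against 69 (0.542%). *Lamc1*, the laminin gamma-1 chain, measured 45.9, 45.1, 47.2 and 46.3 CPM in kidney shNT and 60.4, 61.4, 56.1 and 51.3 CPM in kidney shFOS, and in liver 23.8, 22.9, 25.7 and 25.4 CPM with shNT and 28.6, 30.3, 30.3 and 32.8 CPM with shFOS. It rose in kidney (log2 change 0.31, SE 0.08, edgeR adjusted p = 0.0346), had a liver change of 0.32 (SE 0.08, adjusted p = 0.208), and was free of overlap in both. The organs differed by 0.01 (SE 0.11). *Ints6*, a subunit of the Integrator complex, had log2 changes of 0.58 in kidney and 0.41 in liver, *Oxnad1* of 0.35 and 0.44, and *Pkhd1*, the gene of the cilia protein fibrocystin, of 0.46 and 0.55. *Kdr*, the VEGF receptor of endothelial cells, had 0.61 and 0.44 without overlap in either organ; the 7 endothelial markers summed to between 281.7 and 423.9 CPM in kidney shNT and between 414.9 and 525.2 CPM in kidney shFOS, and between 217 and 282.3 and between 236.3 and 296.4 CPM in liver, and their part in it was not tested.

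The shared lower genes were led by *Ier2*, an immediate early gene. It fell in kidney from 13.6, 12.5, 11.8 and 13.9 CPM to 9.51, 9.18, 7.22 and 8.2 CPM (log2 change -0.60, SE 0.14, adjusted p = 0.0292) and stood in liver at 22.5, 25, 28 and 35.5 CPM with shNT and 19.2, 17.3, 20.3 and 19.4 CPM with shFOS (log2 change -0.54, SE 0.14, adjusted p = 0.208), with no overlap in either organ. With a GC content correction the kidney change was -0.32. *Bcl9*, a Wnt coactivator, had log2 changes of -0.61 and -0.50, *Arfgap1*, a Golgi regulator of vesicle coats, of -0.36 and -0.41, and *Aprt*, an enzyme of purine salvage, of -0.53 and -0.52.

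The AP-1 family and the other immediate early genes had negative medians in both organs. The 14 AP-1 genes tested had medians of -0.35 in kidney and -0.33 in liver, and the 14 other immediate early genes of -0.40 and -0.31. By sign alone, the difference was positive for 7 and negative for 7 of the AP-1 genes, and for 8 and 6 of the others. At an unadjusted p under 0.05 it was positive for 1 and negative for 1 of the AP-1 genes, and for 0 and 1 of the others (8.39% and 9.59% of all genes). After correction for GC content the AP-1 family had medians of -0.19 in kidney and -0.33 in liver and a median difference of -0.15, where the uncorrected difference was 0.04. Its liver median was -0.13 without liver shNT replicate 3 and -0.49 without liver shNT replicate 1, and that of the other genes was -0.51 without liver shFOS replicate 3. In liver 3 of the 14 AP-1 genes and 5 of the 14 others were lower at an unadjusted p under 0.05 (5.01% of all genes), and 4 and 5 were lower in kidney (12.8% of all genes). *Jun*, the main partner of Fos, had log2 changes of -0.57 (SE 0.16) in liver and -0.01 (SE 0.16) in kidney, and its liver groups overlapped. Chosen after their values were seen, *Junb* had -0.55 in kidney and -0.86 in liver, *Egr1* -1.02 and -0.71, *Csrnp1* -0.66 and -0.74, and *Nr4a1* -1.01 and -0.59. *Ier3*, an early gene that protects from cell death, was lower mainly in liver, at 6.19, 9.2, 7.32 and 12.7 CPM with shNT and 2.23, 4.9, 2.22 and 2.23 CPM with shFOS (log2 change -1.61, SE 0.29, adjusted p = 0.114), and in kidney had -0.42 (SE 0.24). The liver list values of both lists overlapped between groups, with liver shNT replicate 1 as low as the shFOS libraries.

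Of the 17 core clock genes, 2 rose and 2 fell in kidney by adjusted p (7.39% of all genes in either direction), 8 had an unadjusted p under 0.05 in kidney (27.9%) and 3 in liver (10.9%), and 1 had a difference (18%). *Arntl*, the activator BMAL1, which like *Nr1d1* was chosen after its values were seen, rose in kidney (log2 change 1.06, SE 0.26, adjusted p = 0.0333) and had 0.56 in liver, while *Per3* fell in kidney from between 11.9 and 20.5 CPM to between 3.76 and 6.74 CPM (log2 change -1.72, SE 0.41, adjusted p = 0.0307) and had -0.42 (SE 0.40) in liver. *Ciart*, another clock repressor, fell in kidney (log2 change -2.55, SE 0.71, adjusted p = 0.0454) at levels of 0.05 to 4.25 CPM, and had -1.08 in liver. *Nr1d1*, the repressor REV-ERB alpha, ran from 10.3 to 66.8 CPM within kidney shNT alone and from 4.62 to 107 CPM within liver shNT, with the lowest value in replicate 1 of each. The time of day of tissue collection is not given in the sources used here, and its part in these values was not tested.

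The organ differences of the inflammation lists depended on single libraries. The 28 interferon-stimulated genes had medians of -0.32 in kidney and 0.16 in liver and a median difference of 0.49, which was -0.00 without kidney shNT replicate 2, 0.94 without liver shNT replicate 2 and 0.20 without liver shNT replicate 4. The list's library values ran from -0.97 in replicate 4 to 1.05 in replicate 2 of kidney shNT and from -1.16 in replicate 4 to 1.05 in replicate 2 of liver shNT, wider than the shFOS libraries of either organ. *Stat2*, a transcription factor of interferon signalling, had -0.73 (SE 0.22) and 0.19 (SE 0.22). The 23 genes of the IL-6, JAK and STAT3 pathway had a median difference of -0.35, which was 0.01 without liver shNT replicate 4, -0.23 without kidney shNT replicate 4 and -0.22 without liver shFOS replicate 4. The difference was positive for 7 and negative for 16 of the 23. At an unadjusted p under 0.05 it was positive for 2 and negative for 5 (8.39% and 9.59% of all genes). Of these *Il6st*, the shared receptor gp130, rose in kidney from 88.1, 80.4, 90.6 and 85 CPM to 102, 141, 136 and 118 CPM (log2 change 0.53, SE 0.12, adjusted p = 0.0304), and the liver change was -0.07 (SE 0.12). *Il13ra1* had 0.48 and -0.32, and *Il11ra1*, which overlaps several antisense genes, -0.06 and 0.46.

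The NF-kB pathway and targets (27 genes tested) had medians of -0.33 in kidney and -0.10 in liver, and MHC class II and antigen presentation genes (18) of -0.36 and -0.20, with 0 differences at an unadjusted p under 0.05 in either list. With a GC content correction the kidney medians of the 2 lists were -0.17 and -0.16. Without kidney shNT replicate 2 they were -0.21 and 0.13. The liver median of the first list was -0.25 without liver shFOS replicate 2 and -0.17 without liver shNT replicate 1. For MHC class II and antigen presentation the kidney median was -0.56 without kidney shNT replicate 4, and the liver median was 0.24 without liver shNT replicate 2, -0.43 without liver shNT replicate 1, -0.42 without liver shNT replicate 4 and -0.11 without liver shFOS replicate 4. The 16 acute-phase proteins had medians of -0.54 and -0.82; the kidney median was -0.13 without kidney shNT replicate 4 and -0.85 without kidney shFOS replicate 1, and the liver median was -0.18 without liver shNT replicate 4. The 11 T and B lymphocyte markers had medians of -0.13 in kidney and 0.03 in liver, and a median difference of 0.64 in which 0 genes had an unadjusted p under 0.05 and which was 0.28 without liver shNT replicate 4 and 0.30 without kidney shNT replicate 3. *C4b*, a complement protein, fell in kidney from 39.1, 50, 45.2 and 81 CPM to 15.6, 27.9, 30.9 and 14 CPM (log2 change -1.28, SE 0.28, adjusted p = 0.0287), and the far more abundant liver transcript, at 2049 to 3234 CPM with shNT, had -0.23 (SE 0.28). The 12 macrophage markers summed to between 278.1 and 733.2 CPM in kidney shNT, 392.2 and 525.7 CPM in kidney shFOS, 520.8 and 2796 CPM in liver shNT, and 691 and 1276 CPM in liver shFOS. The 9 of them tested in both organs had medians of -0.32 in kidney (2 positive, 7 negative) and -0.66 in liver (0 positive, 9 negative). With each library left out in turn these medians ran from -0.53 to -0.04 and from -0.95 to -0.12. At an unadjusted p under 0.05, 1 was lower in kidney (12.8% of all genes) and 1 in liver (5.01%). The 8 neutrophil markers summed to at most 15.9 CPM in kidney, with *Elane* and *Ly6g* at 0 reads in kidney shFOS, and to between 19.4 and 228.4 CPM in liver shNT and 6.5 and 56.8 CPM in liver shFOS. The part of these cells in the inflammation values was not tested.

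**Figure D5:**
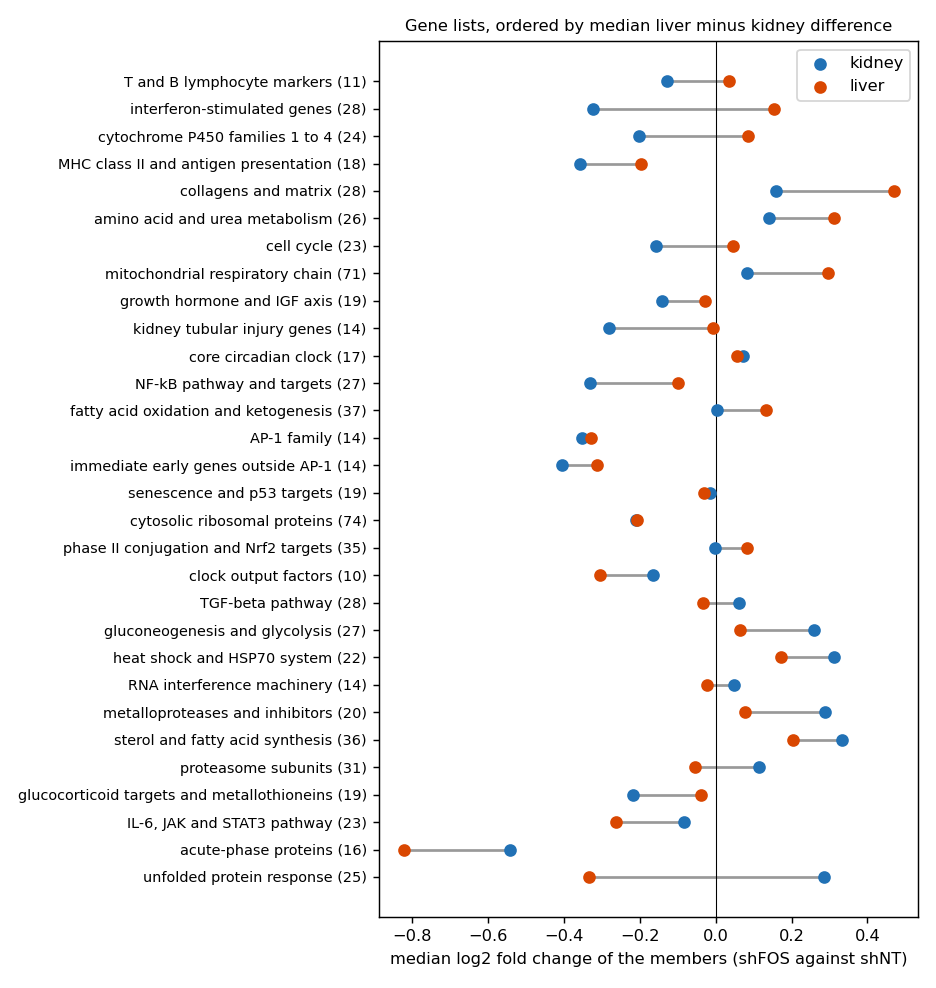
Median log2 fold change of shFOS against shNT over the members of each gene list (number tested in both organs in brackets) on the x axis, in kidney (blue) and liver (orange), for the lists with at least 10 members, ordered by the median of the members' liver minus kidney difference. The unfolded protein response is at the bottom, with 0.29 in kidney and -0.33 in liver, and the AP-1 family has -0.35 and -0.33.

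The 22 genes of the heat shock and HSP70 system had medians of 0.31 in kidney and 0.17 in liver, where the median was 0.40 without liver shNT replicate 1, 0.10 without liver shFOS replicate 2 and 0.06 without liver shNT replicate 4. *Hspa4l*, a cytosolic chaperone of the HSP110 family, rose in kidney (log2 change 0.89, SE 0.18, adjusted p = 0.0225) with 0.31 in liver, the small heat shock protein *Hspb1* had -0.26 and 0.94, and the regulator *Hsf1* had -0.36 and 0.13. The 36 genes of sterol and fatty acid synthesis had medians of 0.33 and 0.20, the latter 0.10 without liver shNT replicate 3 and 0.14 without liver shFOS replicate 1. The 27 genes of gluconeogenesis and glycolysis had medians of 0.26 in kidney, or 0.12 without kidney shFOS replicate 2, and 0.07 in liver, with 9 higher in kidney (15.1% of all genes) and 0 in liver. Of these 27, 4 had a negative difference (9.59% of all genes), or 8 with DESeq2 or without kidney shFOS replicate 1 and 7 without kidney shNT replicate 1. The 74 cytosolic ribosomal proteins had a median of -0.21 in each organ, with 0 differences at an unadjusted p under 0.05. It was -0.02 in kidney without kidney shNT replicate 4 and -0.01 in liver without liver shNT replicate 4. *Krt8*, a keratin of simple epithelia listed among the tubular injury genes, measured 243 to 286 CPM in liver shNT and 295 to 517 CPM in liver shFOS (log2 change 0.59, SE 0.16) and had -0.11 (SE 0.16) in kidney.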

How the data were processed

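RNA-seq of total RNA was deposited as 16 tables of read counts per gene, 1 per library. Per the labels and the study's methods, the authors trimmed paired reads with Trimmomatic 0.39, aligned them to mm10 with HISAT2 2.2.1 and counted reads per gene with HTSeq 0.12.4 without regard to strand, so overlapping genes on opposite strands share reads. The deposited counts are whole numbers, not normalized. The 5 summary lines of each table were left out of library sizes and tests; reads outside genes came to between 13.4% and 26.7% of the counts and ambiguous reads to between 1.84% and 2.64%.

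All 24984 genes were filtered with filterByExpr over the 4 groups, TMM-normalized, and fitted in 1 robust quasi-likelihood model in edgeR 4.0.16 (R 4.3.3), with Benjamini-Hochberg adjustment over all genes tested and a threshold of 0.05. The kidney response, the liver response and their difference came from that fit, and groups from the labels. DESeq2 1.42.0, limma 3.58.1 voom with sample weights, upper-quartile scaling, other filters, GC corrections, replicate blocks and leaving out each library were alternatives. A count of 3 reads corresponds to between 0.164 and 0.211 CPM, and counting error sets only the lower limit of precision. On simulated counts with the per-gene spread of these libraries, the test of the difference recovered 69 of 200 genes changed 2-fold (15281 genes tested) and 150 of 200 changed 3-fold (15273 genes tested). The changes were made in liver shFOS only, in genes with a mean of at least 1 CPM in each organ. Each gene and library was drawn independently. Shifts that many genes of a library share were thus not simulated, and recovery in the real libraries may differ.

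Named genes were *Fos*, the 4 genes with the smallest p of the difference in each direction, the 4 opposite and 4 shared genes in each pattern with the smallest larger p of the 2 organs, the 3 kidney-led and 3 liver-led genes in each direction with the smallest p in that organ, and up to 3 members of each gene list with the smallest p of the difference, all with a mean of at least 1 CPM in each organ. Clone names were passed over, and exceptions are marked in the text as chosen after their values were seen. The classes, the 38 gene lists and the named members were chosen with earlier results of these data known. Promoters are from RefSeq (GRCm38.p6), with an entry for 10068 of the 12727 genes.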

Additional observations from a re-analysis of the deposited data

Results flagged for a closer look

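Within the groups of 4 libraries, 21 of 308 groups of a named gene held 1 library far from the other 3 by Dixon's test, where chance gives about 1 in 20, or 15.4. Of these, 6 were kidney shFOS replicate 1. In 5 of the 6 it was outside the range of the other kidney shFOS libraries on the side of the shNT libraries: *Uggt1* at 56.1 CPM (others 67.5 to 69.4), *Pdia6* at 160 CPM (179 to 183), *Pdia3* at 446 CPM (552 to 573), *Sirt7* at 35.7 CPM (22.7 to 23.6) and *Tepsin* at 15.2 CPM (9.80 to 9.99). The 6th was *Pdzrn3* at 16.8 CPM (18.5 to 18.8), a gene without a kidney change.

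Liver shNT replicate 4 was the far library for *Pdia6* at 593 CPM (others 347 to 381), *Zfp707* at 39.0 CPM (48.2 to 49.4) and *Sox17* at 5.55 CPM (3.17 to 3.51). Liver shNT replicate 2 was far for *Sdf2l1* at 43.3 CPM (73.7 to 79.5) and *Krt8* at 286 CPM (243 to 251), and liver shNT replicate 3 for *Nr4a1* at 16.1 CPM (5.17 to 6.76).

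In the liver shFOS group the far values were *N4bp2l1* at 122 CPM (others 74.1 to 82.0) and *Psma2*, a proteasome subunit, at 89.2 CPM (84.0 to 84.6) in replicate 4, and *Ier3* at 4.90 CPM (2.22 to 2.23) and *Bcl9* at 8.62 CPM (10.1 to 10.2) in replicate 2. The remaining kidney values were *Psmc6* at 42.1 CPM in shNT replicate 2 (51.4 to 52.6), *Hspb1* at 24.9 CPM in shNT replicate 3 (27.6 to 27.9), *Ciart* at 4.25 CPM in shNT replicate 4 (1.06 to 1.46), *Egr1* at 38.7 CPM in shNT replicate 1 (17.4 to 20.6) and *Il11ra1* at 61.9 CPM in shFOS replicate 3 (56.9 to 57.2).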

How the results depend on the processing

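Counts of calls depended on the tool and on single libraries, and the cause was not tested. For the difference between organs edgeR called 0 genes, DESeq2 344, limma voom with sample weights 1041, and edgeR called 1700 without shNT replicate 4 of both organs and kidney shFOS replicate 1 (a setting chosen after seeing the data, like the length correction), where 4150 genes had an unadjusted p under 0.05. For the kidney 994 calls became 2201 with DESeq2, 5507 with limma voom, 474 with a GC correction, 368 with GC and length, 3509 without those 3 libraries and 0 with each organ fitted alone. In liver DESeq2 called 119. Opposite genes numbered 126 with limma voom and 231 without the 3 libraries, kidney-led genes 2799 and 2936, and liver-led genes 261 with limma voom. With adjusted p-values each class held 0. Leaving out each library in turn gave 0 calls for the difference, except 1246 without kidney shFOS replicate 1 and 1 without liver shFOS replicate 2. It gave 0 to 2959 calls for the kidney, 0 to 4 for the liver and 1982 to 3684 differences at an unadjusted p under 0.05. The classes ran from 53 to 182 opposite, 136 to 311 shared, 1102 to 2537 kidney-led and 284 to 590 liver-led genes.

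Kidney and liver libraries of the same number correlated in their deviations from the group means at 0.12 to 0.40 for shNT and 0.04 to 0.16 for shFOS, above 0.1 for 6 of 8 pairs, and 6 of 8 kidney libraries correlated best with their own number. Since not every pair was above 0.1 and the labels name no animal, the fit without a block was kept. With the replicate number as a block the kidney calls were 441, and 2 with the block and a GC correction. An animal received either shFOS or shNT, so this block joins libraries of different animals. Within an organ, shNT and shFOS libraries of the same number correlated at -0.20 to 0.11. With treatment and number taken as 1 animal, the replicate block gave 0 calls for the difference and 2802 genes with an unadjusted p under 0.05. Over the named genes, 2897 values under an alternative kept their direction and side of the threshold, 316 lost it, 183 gained it and 0 reversed.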

Other observations

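Libraries of the same number shared levels of the interferon and antigen presentation lists between organs in the shNT groups. The 28 interferon-stimulated genes stood, as the mean log2 deviation from the organ's shNT mean, at -0.11, 1.05, 0.03 and -0.97 in kidney shNT replicates 1 to 4 and at -0.10, 1.05, 0.20 and -1.16 in liver shNT. The 18 MHC class II and antigen presentation genes stood at 0.11, 0.98, 0.14 and -1.22 in kidney and at -0.52, 1.08, 0.63 and -1.19 in liver, so replicate 2 was highest and replicate 4 lowest in each organ. In the shFOS libraries the interferon list ran from -0.38 to -0.06 in kidney and from 0.03 to 0.56 in liver. The labels do not say whether equal numbers mark 1 animal.

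Glucocorticoid targets and metallothioneins (19 genes) stood at 0.78 in kidney shNT replicate 4 and 0.80 in liver shNT replicate 4, and between -0.38 and -0.15 in the other shNT libraries.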
